A study of Homo sapiens with 3 samples.

Results

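The p53 pathway and target genes described here are 31 human genes that act in, or are known to be switched on by, the p53 response, of 19974 protein-coding genes on chromosomes 1 to 22 and X. A peak was counted for a gene where its summit, the base of highest enrichment, lay inside the annotated gene or within 5 kb of it (RefSeq annotation, GRCh38). By this rule 19 of 8271 peaks in replicate 2 and 26 of 11502 peaks in replicate 3 belonged to the 31 genes. The peaks came from ChIP-seq, in which DNA bound by a protein is isolated with an antibody and sequenced, here with the anti-FOXM1 antibody G-5 in untreated Huh7 cells. Huh7 is an established line from a human hepatocellular carcinoma. The series has 2 FOXM1 ChIP libraries, numbered replicate 2 and replicate 3, and 1 input library made without antibody, for which no peak list was used. Whether both ChIP libraries stem from 1 culture or from several is not stated in the labels. Peak lists give no RNA levels, so the cell type was not checked against markers.

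The transcription factor p53 is stabilised after DNA damage and other stress. It then activates genes that stop the cell cycle, repair DNA, adjust metabolism or trigger cell death, together with genes such as MDM2 that switch p53 off again. FOXM1 is a forkhead transcription factor of proliferating cells that drives genes of the G2 and M phases. p53 is known to lower FOXM1 and its cell cycle targets through CDKN1A and the DREAM repressor complex.

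FOXM1 ChIP peaks were called in both libraries, overlapping or not, at 12 of 31 members, against 28.5% of all protein-coding genes. Another 12 had no peak in either library, against 53.8%. In replicate 2, 13 of 31 members had a peak (41.9%), against 33.3% of all protein-coding genes. In replicate 3, 18 members did (58.1%), against 41.3%. A shared peak, meaning peaks of both libraries that overlapped by at least 1 bp, was found at 10 members (32.3%), against 25.5% of all protein-coding genes. These were MDM2, PPM1D, PLK3, BBC3, APAF1, TP53INP1, SESN1, SESN2, GDF15 and TP73. The shares of members and of all genes were not tested against each other, and the overall share of 25.5% shows how common such calls are.

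Of the others, PLK2 and FDXR had peaks in both libraries that did not overlap, so 12 of 31 members had a peak in each library, overlapping or not, against 28.5% of all genes. BTG2, GADD45A, TNFRSF10B, PHLDA3, RRM2B and TIGAR had a peak in replicate 3 alone, 6 of 31 members against 12.9% of all genes. ZMAT3 was the only member with a peak in replicate 2 alone, against 4.87% of all genes. No peak was called in either library at 12 of 31 members (38.7%), against 53.8% of all genes. These were CDKN1A, MDM4, CCNG1, BAX, PMAIP1, FAS, TNFRSF10A, AEN, TP53I3, RPS27L, DDB2 and TP63. The lists hold only peaks with −log10 q of at least 1.32 in replicate 2 and 1.31 in replicate 3, so a missing peak says that this threshold was not passed.

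**Figure D1:**
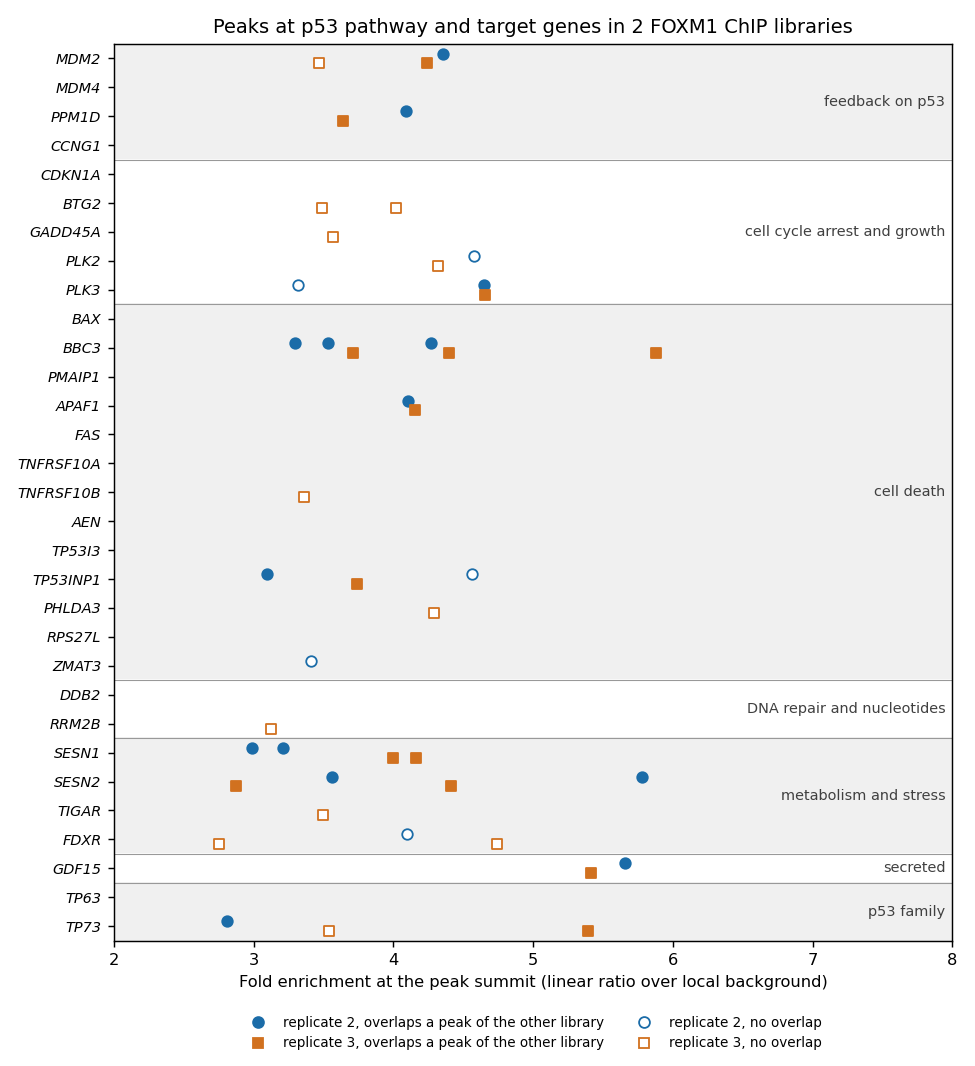
Fold enrichment at the summit (horizontal axis, linear ratio over local background) of each peak at the 31 genes, grouped by role, with circles for replicate 2 and squares for replicate 3; filled symbols overlap a peak of the other library and open symbols do not. GDF15 has both of its peaks above 5, and 12 genes have no symbol because no peak was called.

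Fold enrichment is the authors' own value for each peak, a linear ratio over the local background. Member peaks had a median fold of 4.09 in replicate 2 (range 2.81 to 5.78), against 3.76 for all peaks of that library. In replicate 3 the median was 4.01 (range 2.75 to 5.88), against 3.78 for all peaks. Fragment counts over the summits were rebuilt from the deposited fold and p. Member summits rested on 18 to 35 fragments in replicate 2 (median 27) and on 15 to 37 in replicate 3 (median 24), against medians of 26 and 24.5 for all peaks. Exact Poisson 95% intervals on these counts, given below in brackets, cover counting error only.

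**Figure D2:**
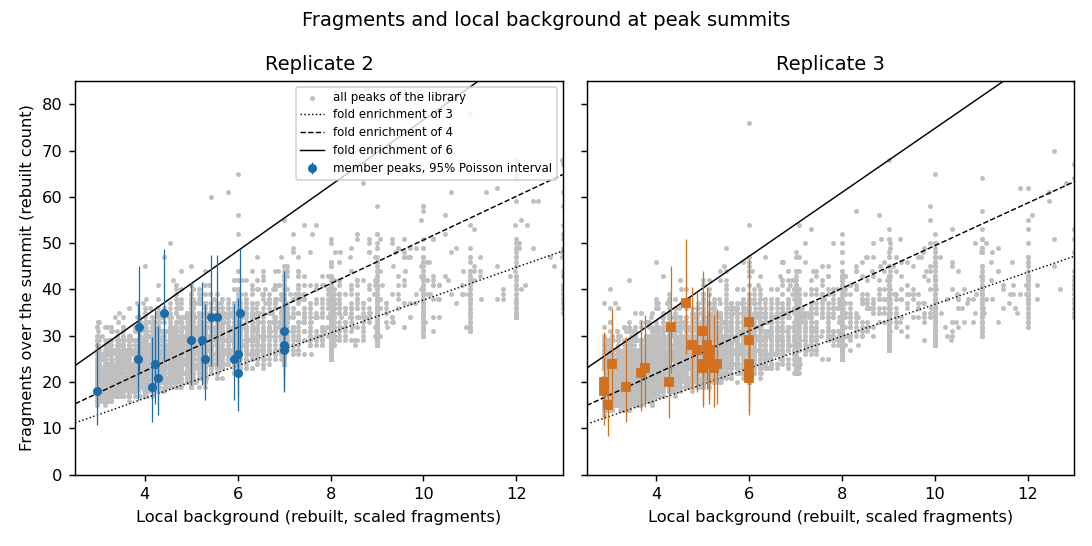
Rebuilt fragment count over the summit (vertical axis) against rebuilt local background in scaled fragments (horizontal axis) for replicate 2 (left) and replicate 3 (right); grey points are all peaks of the library within the axes, coloured symbols are member peaks with exact Poisson 95% intervals, and lines mark a fold enrichment of 3, 4 and 6. Member peaks lie at 15 to 37 fragments and at backgrounds of 2.88 to 7.0, inside the cloud of all peaks.

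The strongest member by the lower fold of both libraries was GDF15, which encodes a secreted stress cytokine of the TGF-beta superfamily. Replicate 2 had a fold of 5.66 there and replicate 3 a fold of 5.42, with −log10 q of 9.48 and 8.43. These folds were at or above those of 98.3% of replicate 2 peaks and 96.9% of replicate 3 peaks. PLK3 followed with a lower fold of 4.65, SESN2 with 4.41, BBC3 with 4.27, MDM2 with 4.24 and APAF1 with 4.10. PPM1D had 3.64, SESN1 3.21, TP53INP1 3.09 and TP73 2.81. The ranges spanned by the libraries overlapped for 6 of 9 neighbouring pairs in this order. They did not overlap for GDF15 and PLK3, MDM2 and APAF1, and APAF1 and PPM1D. With 2 libraries no test of these differences was run.

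Promoter sequences are shown for the 6 members whose shared summits lay in or nearest to a listed promoter window. At PPM1D, PLK3 and SESN2 the stretch shown ends before the overlap of the shared peaks begins. Each line gives the 250 bases before a gene start listed by RefSeq (GRCh38.p14), read 5′ to 3′ on the gene's strand, and the last base is the one just before the start. Capitals mark matches to any of 7 motifs on either strand. TGTTTA is the core bound by forkhead factors such as FOXM1. TTTGAA is the CHR, an element of many promoters of the G2 and M phases. CCAAT is the box bound by NF-Y. GGGCGG is the GC box bound by SP factors. CCGGAA is the core bound by ETS factors. CACGTG is the E-box bound by MYC and USF factors. The last is the p53 decamer, the repeated unit of a p53 response element.
MDM2: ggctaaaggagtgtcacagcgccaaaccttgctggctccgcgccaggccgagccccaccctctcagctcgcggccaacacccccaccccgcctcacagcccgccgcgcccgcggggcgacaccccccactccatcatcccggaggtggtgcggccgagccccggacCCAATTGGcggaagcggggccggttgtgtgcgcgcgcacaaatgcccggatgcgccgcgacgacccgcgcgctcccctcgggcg
PPM1D: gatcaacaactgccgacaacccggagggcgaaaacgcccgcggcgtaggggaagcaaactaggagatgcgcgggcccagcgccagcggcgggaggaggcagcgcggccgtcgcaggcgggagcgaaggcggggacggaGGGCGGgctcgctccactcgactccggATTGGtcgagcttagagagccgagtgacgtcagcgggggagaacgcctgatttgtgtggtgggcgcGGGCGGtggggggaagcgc
PLK3: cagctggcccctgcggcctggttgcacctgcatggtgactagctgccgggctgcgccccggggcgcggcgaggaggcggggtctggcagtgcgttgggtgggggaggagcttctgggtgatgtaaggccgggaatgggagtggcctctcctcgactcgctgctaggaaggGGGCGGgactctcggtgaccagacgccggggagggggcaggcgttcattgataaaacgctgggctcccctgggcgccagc
APAF1: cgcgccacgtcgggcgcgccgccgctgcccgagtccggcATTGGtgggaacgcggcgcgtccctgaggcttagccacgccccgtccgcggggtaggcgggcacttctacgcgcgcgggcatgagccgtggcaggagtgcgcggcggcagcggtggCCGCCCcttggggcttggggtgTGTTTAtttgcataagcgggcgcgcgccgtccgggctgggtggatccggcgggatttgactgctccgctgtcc
SESN1: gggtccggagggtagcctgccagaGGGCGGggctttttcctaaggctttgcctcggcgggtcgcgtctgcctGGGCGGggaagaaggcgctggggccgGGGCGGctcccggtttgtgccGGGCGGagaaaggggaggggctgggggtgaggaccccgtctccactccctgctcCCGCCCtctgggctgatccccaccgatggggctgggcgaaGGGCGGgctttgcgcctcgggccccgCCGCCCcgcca
SESN2: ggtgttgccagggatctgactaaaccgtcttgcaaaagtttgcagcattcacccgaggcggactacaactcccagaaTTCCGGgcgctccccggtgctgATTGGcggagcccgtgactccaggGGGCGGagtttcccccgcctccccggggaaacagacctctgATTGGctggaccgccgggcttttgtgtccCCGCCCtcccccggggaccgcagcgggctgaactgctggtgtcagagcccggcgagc

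Among these 6 stretches only APAF1 held the forkhead core, at -73 to -68, and its ChIP summits lay at -140 in replicate 2 and -236 in replicate 3. APAF1 (chromosome 12, 98645040 to 98645289, plus strand) also held a CCAAT match at -211 to -207 and a GC box at -95 to -90. The MDM2 stretch (chromosome 12, 68807922 to 68808171, plus strand) held a pair of CCAAT matches on opposite strands that share 2 bases, from -84 to -77, close to its summits at -33 and -12. SESN1 (chromosome 6, 109094847 to 109095096, minus strand) held 7 GC boxes. SESN2 (chromosome 1, 28259268 to 28259517, plus strand) held 2 CCAAT matches, 2 GC boxes and 1 ETS core. PLK3 (chromosome 1, 44800127 to 44800376, plus strand) held 1 GC box, and PPM1D (chromosome 17, 60599943 to 60600192, plus strand) held 1 CCAAT match and 2 GC boxes. A match is a description of letters and not a binding site.

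Of the 4 members that restrain p53 itself, MDM2 and PPM1D had a shared peak, against 25.5% of all genes. MDM4 and CCNG1 had no peak in either library, against 53.8% of all genes. MDM2 encodes the ubiquitin ligase that marks p53 for destruction and is itself a p53 target. Its peak (chromosome 12, 68808018 to 68808257 in replicate 2) had a fold of 4.35 in replicate 2 and 4.24 in replicate 3, on 35 (24.4 to 48.7) and 33 (22.7 to 46.3) fragments. The −log10 q was 6.74 and 6.37, and the summits were 21 bp apart. MDM2 is known to have an upstream promoter and a second one in its first intron that responds to p53. The shared summits lay at the most upstream of its 4 listed starts. A further replicate 3 peak, with fold 3.46, had its summit 392 bp downstream of that start, at -453 from the start listed at 68809017.

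PPM1D encodes the WIP1 phosphatase, which dephosphorylates p53 and the kinases that activate it. Its fold was 4.09 in replicate 2 and 3.64 in replicate 3, on 24 (15.4 to 35.7) fragments in each library. The summits lay 378 bp and 49 bp downstream of the listed start and 329 bp apart. MDM4 encodes a relative of MDM2 that blocks p53 activity. The nearest peak lay 22018 bp outside the gene in replicate 2, beside PIK3C2B, and 104376 bp outside it in replicate 3. CCNG1 encodes cyclin G1, and its nearest peak was 3015624 bp away in replicate 2 and 3125009 bp away in replicate 3.

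Among the genes of cell cycle arrest and growth, PLK3 alone of 5 had a shared peak, a share close to the 25.5% of all genes. A peak was called at 4 of the 5 in replicate 3, against 41.3% of all genes, and at 2 in replicate 2, against 33.3%. PLK3 encodes a stress-responsive polo-like kinase. Its peak (chromosome 1, 44800385 to 44800744 in replicate 2) had a fold of 4.65 in both libraries, on 34 (23.6 to 47.5) and 31 (21.1 to 44.0) fragments, with −log10 q of 7.07 and 6.64. The summits lay 84 bp and 132 bp downstream of the start. PLK3 had the smallest difference in fold between the libraries of any member. A second replicate 2 peak counted for PLK3, with fold 3.32, lay inside the neighbouring gene BTBD19, 51 bp from its end.

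PLK2, a related kinase gene, had a peak on either side of its start, one in each library. In replicate 2 the summit was 138 bp downstream with fold 4.57 on 25 (16.2 to 36.9) fragments. In replicate 3 it was at -244 with fold 4.32 on 22 (13.8 to 33.3) fragments. The 2 peaks were 148 bp apart, so they were not counted as shared. BTG2, an antiproliferative gene, had 2 peaks in replicate 3 alone, with summits at -80 (fold 3.49) and 468 bp downstream (fold 4.02). GADD45A, a stress-induced growth arrest gene, had a replicate 3 peak with fold 3.57, 22 bp inside the gene from its nearer end. Their −log10 q values were 2.75 and 3.35 at BTG2 and 3.30 at GADD45A, all below the library's median of 3.82. The nearest replicate 2 peak lay 842177 bp from BTG2 and 631486 bp from GADD45A.

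CDKN1A encodes the cyclin-dependent kinase inhibitor p21, the best known p53 target in cell cycle arrest. It had no peak in either library. The nearest peaks lay 233344 bp away in replicate 2 and 233527 bp away in replicate 3, both beside KCTD20. The promoter window of CDKN1A was rich in G and C bases (74.3%) and held 4 GC boxes.

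Of the 13 cell death genes 3 had a shared peak, against 25.5% of all genes, and 7 had no peak, against 53.8%, so both counts were close to the overall shares. BBC3 encodes PUMA, a BH3-only protein that neutralises the survival members of the BCL-2 family. It was the only member with 3 shared peaks, and all lay inside the gene rather than at its listed start. The strongest (chromosome 19, 47226076 to 47226677 in replicate 3) had a fold of 4.27 in replicate 2 and 5.88 in replicate 3, on 29 (19.4 to 41.7) and 37 (26.1 to 51.0) fragments. The replicate 3 value, with −log10 q of 11.3, was the highest of any member peak in that library. The other BBC3 pairs had folds of 3.29 and 3.71, and of 3.53 and 4.40, in replicates 2 and 3. All 3 pairs were higher in replicate 3. Summits lay 1313 to 6483 bp downstream of the start, and the strongest pair lay 458 bp and 758 bp from an end of the microRNA gene MIR3190.

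APAF1 encodes the scaffold of the apoptosome, which activates caspases. Its fold was 4.10 in replicate 2 and 4.15 in replicate 3, on 29 (19.4 to 41.7) and 28 (18.6 to 40.5) fragments. The summits lay 362 bp and 266 bp from an end of IKBIP, so the peak could be counted for either gene. TP53INP1 encodes a stress protein that promotes p53 phosphorylation. Its shared peak had a fold of 3.09 in replicate 2 and 3.74 in replicate 3, with summits 73 bp and 26 bp outside the gene, on 28 (18.6 to 40.5) and 29 (19.4 to 41.7) fragments. A taller replicate 2 peak, with fold 4.56 and −log10 q of 6.89, lay 718 bp inside the gene and overlapped no replicate 3 peak. All of these TP53INP1 summits also lay within the annotated span of NDUFAF6.

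Single-library peaks were found at 3 further cell death genes. TNFRSF10B, a death receptor gene for the ligand TRAIL, had a fold of 3.36 in replicate 3, with the summit also inside TNFRSF10B-AS1. PHLDA3, which encodes an inhibitor of AKT signalling, had a fold of 4.29 in replicate 3 on 18 (10.7 to 28.5) fragments over a background of 2.88, the lowest background of the member peaks, found also at FDXR. ZMAT3, which encodes an RNA-binding zinc finger protein, had a fold of 3.41 in replicate 2 on 31 (21.1 to 44.0) fragments, 115 bp downstream of its start. The fragment count at ZMAT3 exceeded those of several shared peaks, but over a rebuilt local background of 7.0. Its fold was at or above those of 32.0% of replicate 2 peaks. The nearest replicate 3 peak was 188768 bp away.

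BAX, PMAIP1, FAS, TNFRSF10A, AEN, TP53I3 and RPS27L had no peak in either library. BAX encodes the pore-forming protein of the mitochondrial death pathway, and its nearest peaks were 56348 bp away in replicate 2 and 56262 bp away in replicate 3. PMAIP1 encodes the BH3-only protein NOXA, with distances of 630667 bp and 630771 bp. FAS, a death receptor gene, had distances of 1101578 bp and 518729 bp, and the nuclease gene AEN had 262802 bp and 170924 bp. TNFRSF10A, TP53I3 and RPS27L had their nearest peaks at 21786 to 38794 bp, beside or near other genes such as LACTB, whose end was 114 bp and 36 bp from the summits nearest to RPS27L. Of the BH3-only genes on the list, BBC3 had 3 shared peaks and PMAIP1 had no peak. Over all genes 25.5% had a shared peak and 53.8% had no peak.

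All 4 genes of metabolism and stress had a peak in replicate 3, against 41.3% of all genes, and 3 of the 4 had one in replicate 2, against 33.3%. A shared peak was found at 2 of the 4, against 25.5%. The sestrins SESN1 and SESN2, which restrain mTORC1 and oxidative stress, each had 2 shared peaks. At SESN2 the upper pair (chromosome 1, 28259405 to 28259963 in replicate 2) had a fold of 5.78 in replicate 2 and 4.41 in replicate 3, on 32 (21.9 to 45.2) and 23 (14.6 to 34.5) fragments. The replicate 2 value was the highest of any member peak in that library, and the summits were 7 bp apart, 120 bp and 127 bp downstream of the start. The second SESN2 pair was weaker in both libraries, with folds of 3.56 and 2.87. Both SESN2 pairs were higher in replicate 2.

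At SESN1 the peaks lay at 2 different listed starts. At the outermost start replicate 2 had a fold of 2.99 and replicate 3 one of 3.99. The replicate 3 summit there lay just inside the neighbouring gene CEP57L1, 11 bp from its end. At an internal start the fold was 3.21 and 4.16, with summits 146 bp and 3 bp downstream of it, within the span of ARMC2. Fragment counts were equal at the outermost start, with 27 (17.8 to 39.3) in each library, while the rebuilt local background was 7.0 in replicate 2 and 5.12 in replicate 3.

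TIGAR, which encodes a phosphatase that slows glycolysis, had a peak in replicate 3 alone, at -122 with fold 3.50. FDXR encodes ferredoxin reductase, a mitochondrial enzyme. Its peaks did not lie at its starts but beyond its far end, near or inside GRIN2C. The replicate 2 peak had fold 4.10 and the nearest replicate 3 peak had fold 4.74, and they were 369 bp apart. Another replicate 3 peak had fold 2.75 and −log10 q of 1.68.

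Neither of the 2 DNA repair and nucleotide genes had a shared peak, against 25.5% of all genes. DDB2, a sensor of ultraviolet damage, had none in either library, and its nearest peaks were 27981 bp and 28252 bp away, beside PACSIN3. RRM2B, the p53-inducible subunit of ribonucleotide reductase, had a fold of 3.12 in replicate 3 alone, 347 bp outside the gene.

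GDF15 combined the highest lower fold with a position away from its start. Its peak (chromosome 19, 18388117 to 18388855 in replicate 2) rested on 35 (24.4 to 48.7) fragments in replicate 2 and 32 (21.9 to 45.2) in replicate 3. The summits lay 2521 bp and 2401 bp downstream of the start, which is 497 bp and 617 bp inside the gene from its far end. The peak was also within 5 kb of LRRC25.

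Of the 2 p53 family members, TP73 had a shared peak, against 25.5% of all genes. TP63 had no peak in either library, against 53.8% of all genes. Both encode relatives of p53 that can bind similar elements. The TP73 pair showed the largest difference in fold between the libraries of the 14 shared pairs, with 2.81 in replicate 2 and 5.40 in replicate 3. Fragment counts were 22 (13.8 to 33.3) and 24 (15.4 to 35.7), while the rebuilt local background was 6.0 and 3.05. In replicate 2 its −log10 q of 1.58 was near the lowest value of the list, while replicate 3 had 6.29. Both summits lay inside WRAP73, 130 bp and 52 bp from its end, and at -2543 and -2465 from the first TP73 start. A further replicate 3 peak at TP73 had a fold of 3.54 on 15 (8.4 to 24.7) fragments, the lowest count of the member peaks. At TP63 the nearest peaks were 223337 bp and 223384 bp away, beside P3H2.

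**Figure D3:**
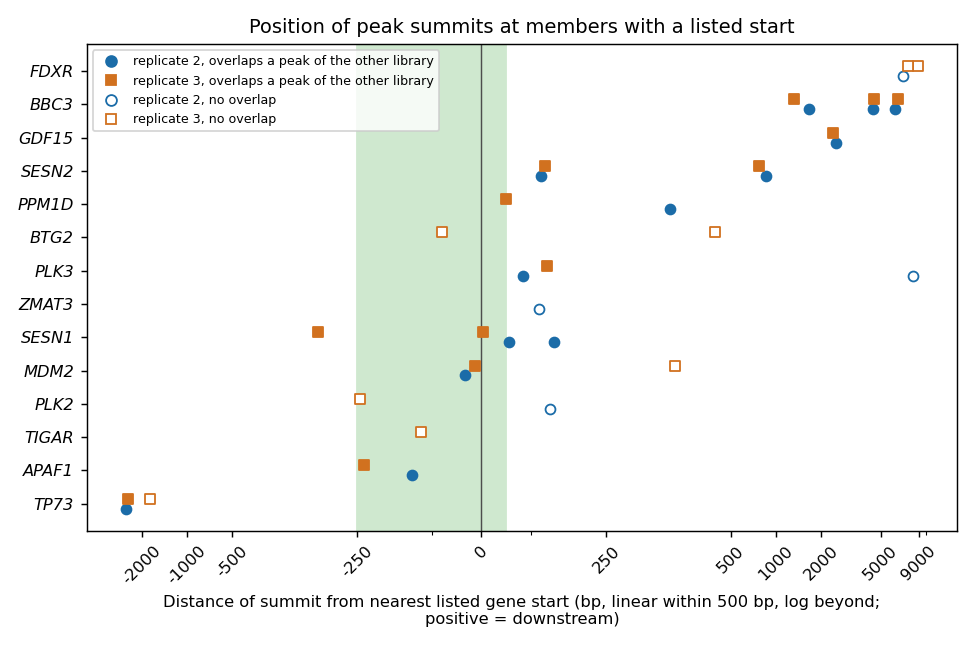
Distance of each member summit from the nearest listed gene start in bp (horizontal axis, linear within 500 bp and logarithmic beyond, positive downstream), for members in the RefSeq promoter table; circles are replicate 2, squares replicate 3, filled symbols are shared and the shaded band is the promoter window. MDM2, SESN1 and APAF1 and the shared PLK3 pair lie within 1 kb of a start, while BBC3, GDF15, FDXR and TP73 lie more than 1 kb from it.

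At 3 shared members the summits lay away from a listed start. Gene starts were listed for 9 of the 10 members with a shared peak, and 6 of these had a shared pair with both summits within 1 kb of a start (66.7%), against 79.2% of 4101 protein-coding genes with a shared peak. The exceptions were BBC3, GDF15 and TP73. Counting both ends of a gene and both summits within 1 kb, 8 of 31 members had a shared peak, against 18.9% of all genes. At 5 of the 10 shared members, namely MDM2, PPM1D, PLK3, SESN2 and BBC3, no shared pair lay within 5 kb of another protein-coding gene. At the other 5 shared members each pair also fell in the window of 1 neighbour.

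The 14 shared pairs of peaks at members were also set against the shared pairs of the whole lists. The median absolute log2 ratio of the 2 folds was 0.29, against 0.21 for all 6028 pairs. Summits were at most 100 bp apart in 7 of 14 pairs, against 49.7% of all pairs. Replicate 3 was the higher library in 9 of 14 pairs (64.3%), against 54.1% of all pairs.

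Gene length and promoter composition both moved with the calls over all genes, and the members are given beside them. A shared peak was found at 20.5% of genes of up to 12538 bp, 26.0% of genes of 12539 to 46263 bp and 30.1% of longer genes. Members had 3 of 13, 3 of 10 and 4 of 8 in these classes. Their median length was 23407 bp, against 24170 bp for all protein-coding genes.

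Promoter windows, which run from 250 bases before to 50 after a start, were listed for 25 members and for 15812 protein-coding genes, and the first start of each was used. The share of G and C bases had a median of 71.0% at 9 members with a shared peak, 71.7% at 5 with an unshared peak and 63.0% at 11 without any. Over all genes the medians were 70.0%, 66.0% and 57.7%. The middle class was the one in which the member median stood above that of the members with a shared peak. BBC3, at 48.0%, had the lowest share of the members with a shared peak, and its peaks lay away from that window. The part of base composition and length in the calls was not tested.

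**Figure D4:**
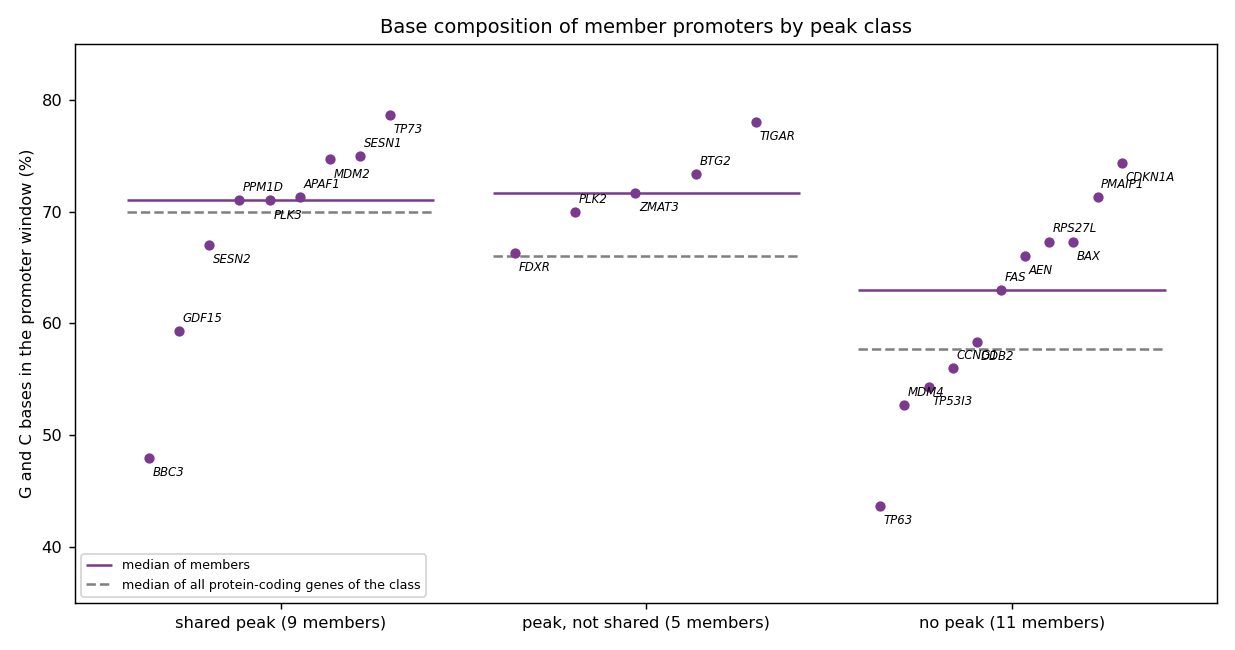
Share of G and C bases in the promoter window of the first listed start (vertical axis, %) for 25 members by peak class; points are genes, solid lines the member medians and dashed lines the medians of all protein-coding genes of the class. Members with a shared peak have a median of 71.0% and members without a peak 63.0%, and the classes overlap.

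The motifs were counted in the same windows. The forkhead core occurred in 3 of 25 member windows (12.0%), against 9.01% of all windows. These were APAF1, GDF15 and TP63, of which the first 2 had a shared peak. The GDF15 summits lay outside that window, 2521 bp and 2401 bp downstream of the start. Among members the core stood at 2 of 9 genes with a shared peak and 1 of 11 without a peak. Over all genes it was less common with a shared peak (5.36%) than without a peak (11.8%). The p53 decamer occurred in 4 of 25 (16.0%), against 5.91% of all windows: PLK2, RPS27L, AEN and FDXR, none of which had a shared peak. Over all genes it occurred at 4.05% of those with a shared peak and 6.91% of those without a peak. Windows at further starts, not counted here, held it at SESN1, which had a shared peak, and at FAS and DDB2, which had no peak. CCAAT occurred in 14 of 25 (56.0%), against 36.4%, and the GC box in 20 of 25 (80.0%), against 58.3%. CHR occurred in 2 of 25 (8.0%), against 12.2%, the ETS core in 7 of 25 (28.0%), against 22.7%, and the E-box in 3 of 25 (12.0%), against 8.82%. The CHR occurred at 2 of 11 members without a peak and 0 of 9 with a shared peak, against 16.2% and 7.39% over all genes. The ETS core occurred at 5 of 11 members without a peak and 1 of 9 with a shared peak. Over all genes those ETS core shares were 21.2% and 23.6%. The member counts are small, and their difference from these shares was not tested. MDM4, without a peak, held 2 CHR and 3 ETS core matches. Short motifs can overlap each other, and their absence says only that these letters are not in the window.

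The other pathway genes were taken in 2 lists. Of 18 upstream regulators, such as the kinases that activate p53, 5 had a shared peak, against 25.5% of all genes. The damage kinase genes ATM, ATR, CHEK1 and CHEK2 had no peak in either library. The 5 were DYRK2, a kinase gene (fold 3.92 in replicate 2 and 4.37 in replicate 3), the acetyltransferase genes EP300 (3.70 and 4.46) and CREBBP (5.17 and 3.51), the kinase gene HIPK2 (3.31 and 3.25) and the deacetylase gene SIRT1 (3.05 and 5.12). The summits of this HIPK2 pair lay outside HIPK2, 51 bp and 108 bp from an end of TBXAS1. The replicate 2 summit was inside TBXAS1.

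Of 30 further p53 targets 10 had a shared peak, against 25.5% of all genes. The strongest by lower fold was PIDD1, a death domain gene (4.61 in replicate 2 and 4.54 in replicate 3). It was followed by POLH, a translesion polymerase gene (5.15 and 3.89), THBS1, which encodes thrombospondin (3.97 and 3.73), the repair gene XPC (4.13 and 3.64), the receptor kinase gene EPHA2 (3.63 and 4.03) and NINJ1 (4.41 and 3.21). The summits at POLH lay within 110 bp of an end of XPO5, and those at XPC within 327 bp of an end of LSM3. None of the genes in these 2 lists had a lower fold as high as that of GDF15 or PLK3.

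**Figure D5:**
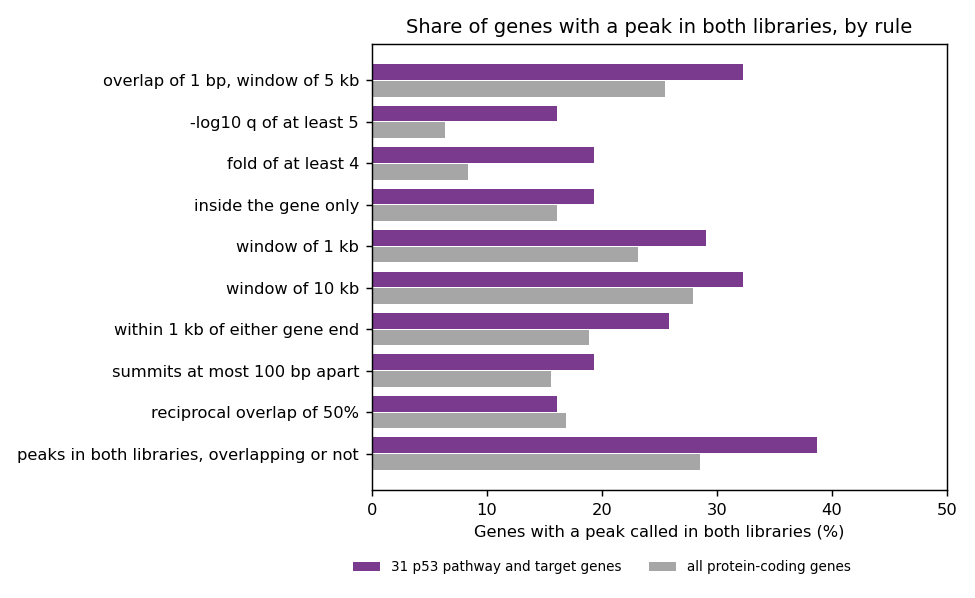
Percent of genes with a peak in both libraries (horizontal axis) for the 31 members (upper bar of each pair) and all protein-coding genes (lower bar), under the rule used here and 9 other rules. The member bar is the longer one in each pair except under reciprocal overlap of 50%; these shares were not tested.

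PLK3 was the only member that kept a shared peak under each of the 5 stricter rules given here, and MDM2, BBC3 and GDF15 each kept one under 4 of them. With −log10 q of at least 5 in both libraries, MDM2, PLK3, BBC3, APAF1 and GDF15 kept a shared peak, 5 of 31 members against 6.36% of all genes. With fold of at least 4 SESN2 was called as well, 6 of 31 against 8.33%. With summits at most 100 bp apart, MDM2, PLK3, APAF1, TP53INP1, SESN2 and TP73 were called, 6 of 31 against 15.6%. Reciprocal overlap of at least 50% left MDM2, PLK3, BBC3, SESN1 and GDF15, 5 of 31 against 16.9%, and summits inside the gene left PPM1D, PLK3, BBC3, SESN1, SESN2 and GDF15, 6 of 31 against 16.1%. Narrowing the window to 1 kb gave 9 of 31 against 23.1%, and widening it to 10 kb gave 10 of 31 against 27.9%. In single libraries, −log10 q of at least 5 left 8 members in replicate 2, against 12.5% of all genes, and 7 in replicate 3, against 16.2%. Summits inside the gene left 11 members in replicate 3, against 30.1%. Peaks from a control antibody or from FOXM1-depleted cells were not part of the data, so the dependence of these peaks on FOXM1 was not tested.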

How the data were processed

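ChIP-seq peaks of 2 FOXM1 libraries from Huh7 cells were used; the input has no peak list here. CASAVA 1.4, BWA and MACS2 2.2.7.1 and the build GRCh38 are named, with no role or order, per the submitters' processing notes. The authors deposited 1 peak list per library. Each peak has a deposited fold (a linear ratio over local background, pseudocount 1), a deposited −log10 p and −log10 q, a deposited score that repeats −log10 q and was not used, and a summit offset. Total read depth is not given in the sources used here.

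From the deposited fold and −log10 p of each peak, whole fragment counts and local backgrounds were worked out, taking p as a Poisson upper tail; 100% of peaks were rebuilt within 0.001. Scales of 0.848 (replicate 2) and 0.869 (replicate 3) between ChIP and control came out of this step. Counts were recovered in simulated peaks built with these same scales, so the simulation does not test the scales. With p shuffled among the peaks, 1.2% were rebuilt in each library. The control is not named in the labels.

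Gene positions and promoter windows came from RefSeq (GRCh38.p14). All 31 members matched the gene table and 25 the promoter table. Strand and starts were taken from the promoter table; exons were not used here. Coordinates are 1-based. No test was run: both libraries form 1 group. The members and lists were chosen with earlier results of these data known. All 31 members are named, and of the other lists up to 6 genes with the highest lower fold at a shared peak. Base composition, gene length classes, nearest peaks and the promoters' first starts were looked at after seeing the data. Alternatives changed the q and fold thresholds, the window, the rule for sharing and the libraries. Python 3.11.15, numpy 2.4.6, pandas 2.3.3, SciPy 1.17.1 and matplotlib 3.10.9 were used.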

Additional observations from a re-analysis of the deposited data

How the results depend on the processing

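The count of members with a shared peak was 10 and moved by over 1.5 times under 6 of the alternatives tried. It was 18 without replicate 2, 5 with −log10 q of at least 5, 6 with fold of at least 4, 6 inside the gene only, 6 with summits at most 100 bp apart and 5 with reciprocal overlap of 50%; the members called under these last 5 were all among the 10. Each of these 5 rules only takes away peaks or pairs that the main rule had counted. Its members therefore had to be among the 10, which says nothing about how stable those calls are. Under the same 5 the share of all protein-coding genes was 6.36%, 8.33%, 16.1%, 15.6% and 16.9%, against 25.5% under the rule used. The single-library counts moved with −log10 q of at least 5, to 8 members in replicate 2 and 7 in replicate 3, and inside the gene only, to 11 members in replicate 3. Without replicate 2 or without replicate 3, the count ran from 13 to 18 members and the share of all genes from 33.3% to 41.3%, since a call then needs 1 library alone. Windows of 1 kb and 10 kb and the 1 kb at either gene end left the counts within 1.5 times. The highest fold of a member moved by less than the spread between libraries in 104 of 105 values, with 19 more losing their peak. The exception was PLK3 in replicate 3 with a window of 10 kb, at 4.67. Most of these settings keep the same highest peak or drop it, so this count is no measure of stability. Members with a peak in 1 library have no spread between libraries of their own. No paired analysis was possible because the libraries form 1 group. Summits of 15 to 37 fragments limit the detection of weaker peaks.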
